A study of Mus musculus with 6 samples.

Results

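The molecular chaperones described here are the heat shock proteins, their J-domain partners and the chaperonins. They were chosen by name: every gene whose platform symbol starts with Hspa, Hspb, Hsp90, Dnaja, Dnajb or Dnajc, or is Hspd1, Hspe1, Hsph1, Tcp1 or a numbered Cct gene. This gave 70 of the 12393 genes named on the arrays, read by 146 probe sets, and each gene was represented by its brightest probe set over the 6 arrays. A probe set is a group of short probes for one transcript. Of the 70 genes, 56 reached log2 4 on at least 3 of the 6 arrays and were tested, and the other 14 are given as levels. The probe sets that carry Dnajc19 together with a pseudogene, 2 in number, were not used.

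The arrays cover 3 mouse lung adenocarcinoma cell lines, KPR4, KPR5 and KPR8, from a mixed C57/B6-129SvJae background. Each line was profiled after 24 h with 4-OH tamoxifen at 250 nM, which per the labels brings back expression of the tumour suppressor p53, and with the ethanol vehicle alone. All cultures were kept in DME medium with 10% serum. There are thus 3 arrays per treatment and 1 per line and treatment, and values for single arrays are given in the order KPR4, KPR5, KPR8. The alleles behind the p53 switch and the number of clones in a line are not given in the sources used here. Every treated culture had both the drug and restored p53, so effects of the drug itself and of p53 cannot be told apart.

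Over the whole array, 7644 genes were tested with limma in a model with terms for line and treatment. Array medians ranged over 4.56 to 4.63 (log2), and bacterial control probe sets, which mark background, read 1.13 to 2.84. All 7 epithelial markers passed the filter, with Krt8 at 12.09 to 12.40 and Epcam at 8.89 to 10.75 over the 6 arrays. Cldn4 ran from 4.13, close to the filter, to 7.28. With the drug Cdh1 and Cldn4 were higher (0.30 and 0.89), Epcam was lower (-0.37) and the other 4 did not pass the threshold. Of 7 lung epithelial markers, Abca3 and Aqp5 passed the filter, while the defining genes Nkx2-1 (2.40 to 2.83) and Sftpc (2.61 to 3.13) were near background. Filter passes were 3 of 7 for fibroblast, 0 of 6 for endothelial and 3 of 7 for leukocyte markers, where Ptprc (1.62 to 2.05) was at background and Cd14 read 6.42 to 9.23. Cd68 was higher with the drug by 1.02 but passed the filter through the treated arrays alone. Signal from bulk cultures cannot separate fewer cells of a kind from less RNA per cell.

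Chaperones bind proteins that are unfolded or part folded and let them fold, move or be degraded. Hsp70 proteins work in cycles of ATP hydrolysis that J-domain proteins (the Dnaj genes) start, and that nucleotide exchange factors such as the Hsp110 proteins end. Hsp90 acts later on kinases and steroid receptors. The chaperonins are closed barrels: Hsp60 with its lid Hsp10 in mitochondria, and the CCT ring, whose main clients are actin and tubulin, in the cytosol. Under proteotoxic stress, heat shock factor 1 binds heat shock elements and drives the cytosolic set, while a separate unfolded protein response drives the set of the endoplasmic reticulum (ER). Tumour cells are known for high chaperone levels.

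Promoter sequence was at hand for 58 of the 70 genes, as RefSeq windows on GRCm38.p6 of 300 bases, from 250 before the annotated start to 50 after it. Shown here are windows of genes whose responses are set against each other: the near-identical Hsp70 genes Hspa1b and Hspa1a, the Hsp110 gene Hsph1, the window that Hspd1 and Hspe1 share, and Hspa5 of the ER. Capitals mark heat shock elements in the first 4: the short form GAANNTTC in Hspa1b and Hspa1a, and in Hsph1 and Hspe1 a long form of 3 alternating units, TTC, GAA and TTC or the reverse complement GAA, TTC and GAA, each with 2 bases of any kind between. In Hspa5 they mark the ER stress element, CCAAT and CCACG with 9 bases of any kind between. Each runs 5′ to 3′ on the gene's own strand.
Hspa1b (chr17:34959189-34959488, minus strand): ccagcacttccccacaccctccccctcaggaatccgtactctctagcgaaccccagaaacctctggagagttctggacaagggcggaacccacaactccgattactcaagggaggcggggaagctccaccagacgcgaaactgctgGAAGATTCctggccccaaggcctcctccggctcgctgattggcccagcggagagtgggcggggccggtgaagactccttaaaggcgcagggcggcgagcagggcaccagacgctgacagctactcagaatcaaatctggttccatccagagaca
Hspa1a (chr17:34972107-34972406, minus strand): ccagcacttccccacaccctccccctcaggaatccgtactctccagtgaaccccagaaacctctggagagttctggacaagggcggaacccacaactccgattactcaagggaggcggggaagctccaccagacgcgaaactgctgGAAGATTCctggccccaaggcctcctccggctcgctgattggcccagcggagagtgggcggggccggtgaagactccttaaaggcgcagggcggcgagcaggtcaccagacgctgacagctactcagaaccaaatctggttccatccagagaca
Hsph1 (chr5:149636266-149636565, minus strand): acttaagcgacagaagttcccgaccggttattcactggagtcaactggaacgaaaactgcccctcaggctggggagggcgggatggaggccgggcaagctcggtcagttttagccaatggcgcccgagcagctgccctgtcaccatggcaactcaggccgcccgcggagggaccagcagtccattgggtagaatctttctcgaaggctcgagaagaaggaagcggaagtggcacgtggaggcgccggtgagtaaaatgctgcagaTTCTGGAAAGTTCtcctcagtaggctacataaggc
Hspe1 (chr1:55087898-55088197, plus strand): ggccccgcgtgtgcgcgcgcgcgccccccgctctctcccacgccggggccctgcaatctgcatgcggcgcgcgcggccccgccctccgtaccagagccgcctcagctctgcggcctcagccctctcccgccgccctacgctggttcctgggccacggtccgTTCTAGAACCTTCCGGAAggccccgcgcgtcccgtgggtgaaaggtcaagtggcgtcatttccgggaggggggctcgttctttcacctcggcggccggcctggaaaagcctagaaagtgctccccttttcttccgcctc
Hspa5 (chr2:34771840-34772139, plus strand): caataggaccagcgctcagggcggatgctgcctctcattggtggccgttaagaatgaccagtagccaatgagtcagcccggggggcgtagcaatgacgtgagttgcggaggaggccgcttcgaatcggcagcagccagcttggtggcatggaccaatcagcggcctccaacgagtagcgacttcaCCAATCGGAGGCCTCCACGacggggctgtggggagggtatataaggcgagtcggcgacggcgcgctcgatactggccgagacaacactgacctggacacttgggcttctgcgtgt

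The Hspa1a and Hspa1b windows are identical at 296 of 300 positions (98.7%), and the element in each begins 104 bases before the start. The Hspe1 window overlaps a window of Hspd1 by 285 bases, since these genes are transcribed away from each other, and it holds 2 overlapping matches that begin 89 and 84 bases before the Hspe1 start. In Hsph1 the match lies after the start, by 15 or 36 bases depending on which of its annotated starts is used. On both strands, the longer heat shock element was found in 4 of 58 member genes (6.9%: Dnajb6, Hspd1, Hspe1 and Hsph1), against 0.662% of the 27025 genes with a window. Hspd1 and Hspe1 are both counted for the same stretch of bases, which lies in the part their windows share. GAANNTTC, which the longer form contains, was found in 22.4% of member genes and 9.04% of all. The ER stress element was found in Dnajc3, Hsp90b1 and Hspa5, or 5.17% of member genes, against 0.137% of all. A match describes letters in a window and is not a measured site.

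With 4-OH tamoxifen the chaperones moved in both directions. Of the 56 genes tested, 7 rose and 9 fell, and the other 40 did not pass the threshold of an adjusted p of 0.05. Hspb2 passed the filter through the treated arrays, and without it 6 of 55 rose. The risers were Hspa1b, Hspb2, Dnajb2, Dnajb5, Dnajb9, Dnajc9 and Dnajc14. Those that fell were Hsph1, Hspa4, Hspa4l, Hspd1, Tcp1, Cct7, Dnajc2, Dnajc8 and Dnajc21. As a share, 12.5% rose and 16.1% fell, where over all 7644 genes 10.5% rose and 8.94% fell. The median change of the 56 was -0.03 on the log2 scale, beside 0.00 for all genes tested, and changes ran from -0.60 to 0.76. The size of the change had a median of 0.28 for the chaperones and 0.21 for all genes, and it was 0.5 or more for 10 of 56 and for 1295 of 7644.

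**Figure D1:**
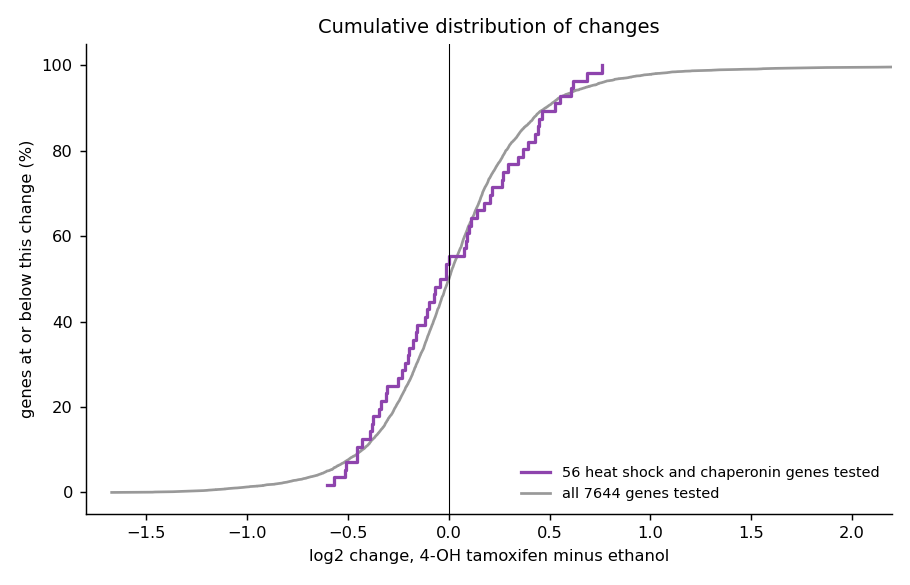
Cumulative share of genes (vertical axis, %) at or below a given log2 change, 4-OH tamoxifen minus ethanol (horizontal axis, the most raised genes of the array lie outside it), for the 56 heat shock and chaperonin genes tested (purple) and all 7644 genes tested (grey). The chaperone curve starts at -0.60 and ends at 0.76, inside the tails of the whole array.

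The direction was the same in KPR4, KPR5 and KPR8 for 42 of the 56 genes (75%), against 51.7% of all genes tested. The treatment calls rest on comparing arrays within a line: in limma without the line term, 0 of the 56 rose and 0 fell, with 3 and 1 at an unadjusted p under 0.05, which 5.18% and 5% of all genes passed upward and downward. They also rest on having all 3 lines. The counts of higher and lower genes were 3 and 4 without KPR4, 3 and 4 without KPR5, and 7 and 1 without KPR8. Only Hspa1b, Hsph1 and Dnajc14 kept their call whichever line was left out.

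**Figure D2:**
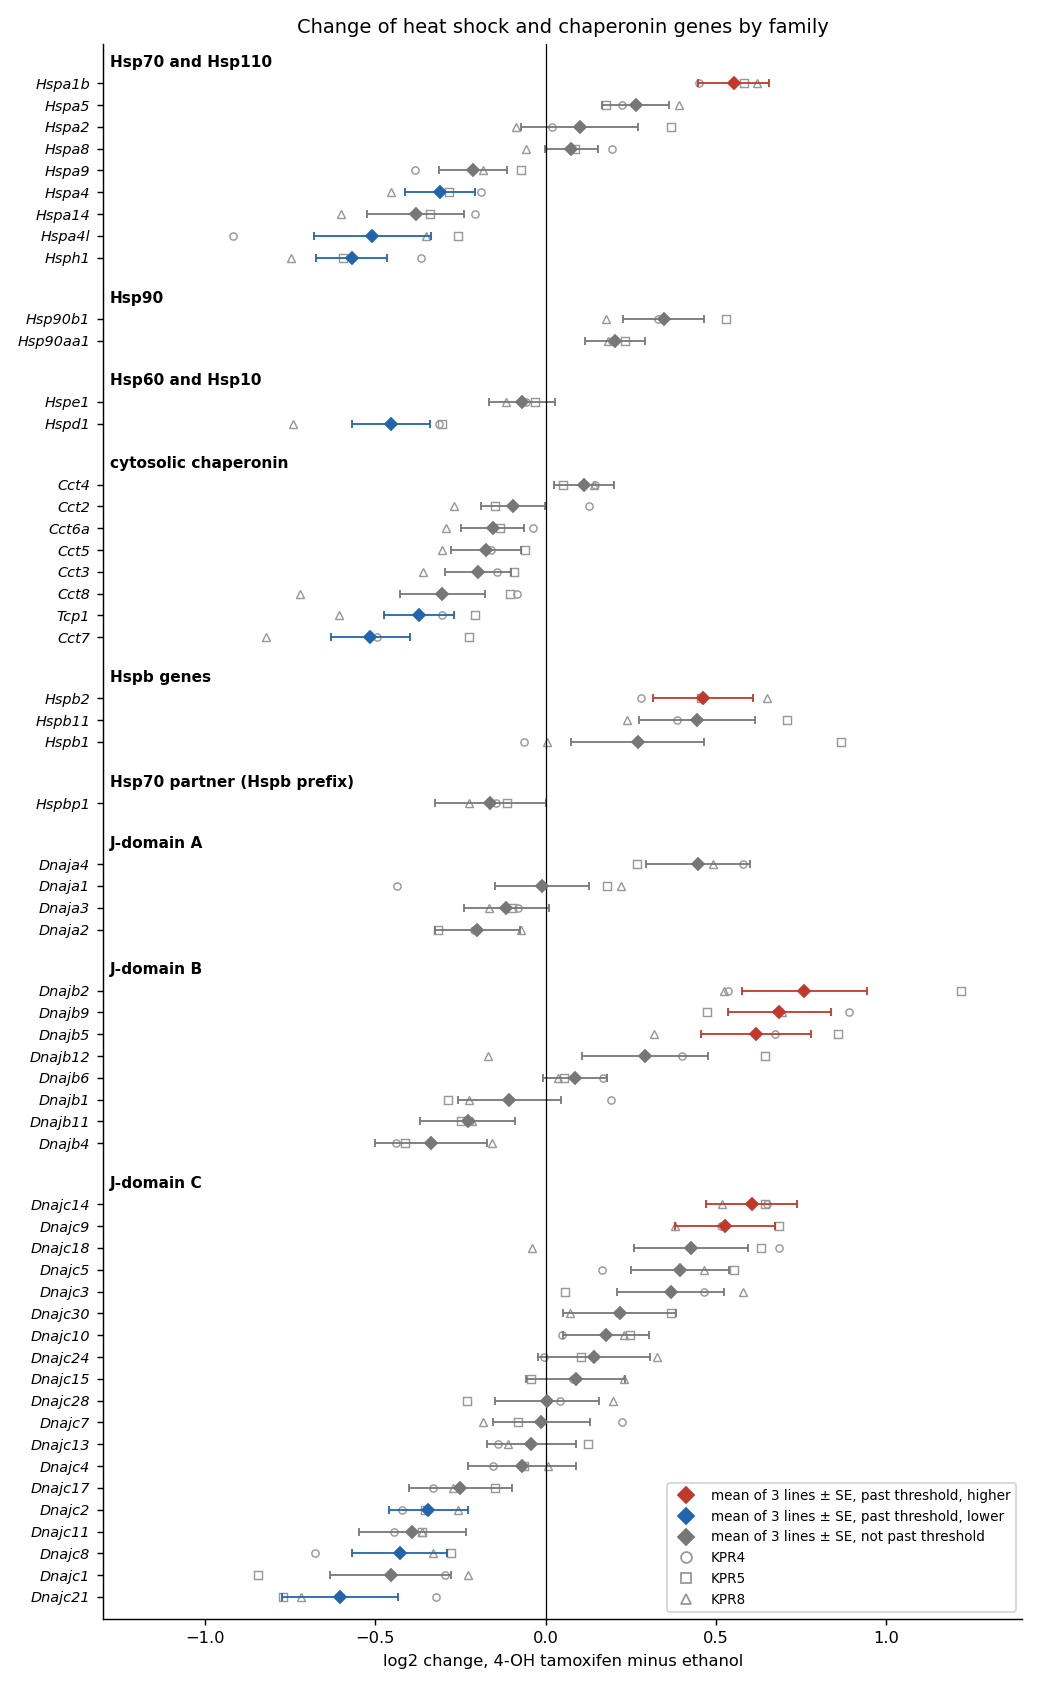
Log2 change, 4-OH tamoxifen minus ethanol, of each of the 56 genes tested (rows, by family): diamonds are means of 3 lines with the standard error from limma, coloured where past the threshold, and open symbols are the differences within KPR4 (circle), KPR5 (square) and KPR8 (triangle). Hspa1b stands at 0.55 above Hsph1 at -0.57 in the same family, and 7 of the 8 cytosolic chaperonin subunits lie left of 0.

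Among the Hsp70 and Hsp110 genes, the stress-inducible Hsp70 gene Hspa1b rose while the Hsp110 genes fell, including Hsph1, also classed as stress-inducible. Of 12 genes 9 were tested, and 1 rose and 3 fell (11.1% and 33.3%, against 10.5% and 8.94% of all genes). Their median change was -0.21. Hspa1b, an inducible cytosolic Hsp70, read 11.49, 11.84 and 11.43 with 4-OH tamoxifen in KPR4, KPR5 and KPR8, against 11.04, 11.26 and 10.81 with ethanol. All treated arrays were above all vehicle arrays, and the change was 0.55 ± 0.10 (SE, log2), or 1.47-fold, with an adjusted p of 0.00172. Its other probe sets gave changes of 0.51 and 0.50, which did not pass in limma over all probe sets (adjusted p = 0.0785 and 0.165). On the latter, KPR8 was lower with the drug (4.43 against 4.57).

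Hspa1a, the neighbouring gene with the near-identical promoter window, was below the filter. It read 3.61, 4.74 and 3.42 in the treated lines, against 2.87, 3.55 and 2.84 with ethanol, where the vehicle arrays of KPR4 and KPR8 were at the level of the highest bacterial control. Each line was higher with the drug. In limma without a filter, where 5.78% of 12393 genes rose, its change was 0.84 ± 0.14 with an adjusted p of 0.00213. Transcripts of the copies are so alike that the probe sets may not separate them.

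Hsph1 encodes the main Hsp110 protein, which exchanges nucleotide on Hsp70. It read 11.29, 11.62 and 11.47 with the drug, against 11.66, 12.21 and 12.22 with ethanol. The treated arrays were all below the vehicle arrays, and the change was -0.57 ± 0.10 with an adjusted p of 0.0014. A dimmer probe set gave -0.34 (adjusted p = 0.247).

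Its relatives Hspa4 and Hspa4l, also exchange factors, fell too, but with adjusted p-values close to the threshold. Hspa4 read 11.13, 11.69 and 11.29 in treated cells, against 11.32, 11.97 and 11.74 with ethanol, a change of -0.31 ± 0.10 (adjusted p = 0.0476). Hspa4l read 7.62, 7.82 and 7.0 with the drug, against 8.53, 8.08 and 7.35 with ethanol, a change of -0.51 ± 0.17 (adjusted p = 0.0497). The groups overlapped for both genes, though each line was lower with the drug. The Hspa4 call ended, as adjusted p, without the filter (0.0706), with probe sets averaged (0.464), without the variance trend (0.158), without KPR4 (0.108), without KPR5 (0.128) and without KPR8 (0.145), and another of its probe sets gave 0.062. That of Hspa4l ended without the filter (0.0858), without the variance trend (0.0547), with median-centred arrays (0.0515), without KPR4 (0.465), without KPR5 (0.0528) and without KPR8 (0.0981), while its second probe set gave -0.53.

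The constitutive Hsp70 genes did not pass the threshold. Hspa8, the main housekeeping Hsp70, read 13.63, 13.58 and 13.61 with 4-OH tamoxifen, against 13.43, 13.49 and 13.67 with ethanol, a change of 0.07 ± 0.08 (adjusted p = 0.553). Hspa9, the mitochondrial Hsp70, had a change of -0.21 ± 0.10 (adjusted p = 0.151) and Hspa2, known from testis, one of 0.10 ± 0.17. Hspa14, the Hsp70 partner of the ribosome, gave -0.38 ± 0.14 (adjusted p = 0.0727) on the probe set used and 0.34 on another of nearly equal level, so the probe sets gave opposite signs.

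Neither Hsp90 gene passed the threshold, nor did the ER Hsp70 gene Hspa5. Hsp90aa1, the inducible cytosolic Hsp90, read 12.20, 12.21 and 12.79 with the drug, against 12.003, 11.98 and 12.60 with ethanol (0.20 ± 0.09, adjusted p = 0.122), but its other probe sets gave -0.16 and -0.28. Hsp90b1, the ER Hsp90 known as GRP94, read 10.62, 10.85 and 11.02 in treated lines, against 10.29, 10.32 and 10.85 with ethanol (0.35 ± 0.12, adjusted p = 0.052). It passed with a stricter filter of log2 5 (adjusted p = 0.0472), and its second probe set gave -0.039. The constitutive cytosolic Hsp90 gene was not analysed here.

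Hspa5, the ER Hsp70 known as BiP, read 11.67, 11.95 and 12.10 with the drug, against 11.44, 11.77 and 11.71 with ethanol. Every line was higher with the drug, the groups overlapped, and the change of 0.26 ± 0.10 missed the threshold (adjusted p = 0.0741). Dnajc3, an ER J-domain protein also known as p58IPK, had a change of 0.37 ± 0.16 (adjusted p = 0.118). Its dimmer probe sets gave 0.066, -0.079, 0.058 and 0.16. Of the 3 genes with an ER stress element in their window 0 passed. On the probe sets used, all 3 were higher at an unadjusted p under 0.05 in limma. At that level 17.4% of all genes were higher and 15.4% lower. Dimmer probe sets of Hsp90b1 and Dnajc3 did not share the rise. Among ER partners of BiP, Dnajb9 rose, as given with the J-domain genes, while Dnajb11 had a change of -0.23 ± 0.14 (adjusted p = 0.281).

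In mitochondria, Hsp60 fell and its lid Hsp10 did not pass. Hspd1, encoding Hsp60, read 10.77, 11.56 and 11.14 in KPR4, KPR5 and KPR8 with the drug, against 11.08, 11.86 and 11.88 with ethanol. Each line was lower with the drug, and the change was -0.45 ± 0.11, a level 1.37-fold lower (adjusted p = 0.0118). The call ended without the variance trend (0.0622) and without KPR8 (0.0797). Hspe1, which shares the promoter window, read 11.41, 11.87 and 11.71 with the drug, against 11.46, 11.90 and 11.83 with ethanol, a change of -0.07 ± 0.10 (adjusted p = 0.674) and of -0.24 on a dimmer probe set. Whether the responses of the pair differ was not tested.

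The cytosolic chaperonin is built from 8 different subunits, all of which were tested. Of these 2 fell and 0 rose, where 8.94% of all genes fell and 10.5% rose. At an unadjusted p under 0.05 in limma 3 were lower and 0 higher, against 15.4% and 17.4% of all genes. The median change was -0.19, and 7 of the 8 had a change below 0, as had 3804 of all 7644 genes. Cct7 read 11.27, 11.85 and 10.82 with 4-OH tamoxifen, against 11.77, 12.08 and 11.65 with ethanol, a change of -0.51 ± 0.12 (adjusted p = 0.00615), and -0.36 on its other probe set. Tcp1, the founding subunit CCT1, read 11.89, 12.09 and 11.44 in treated cells, against 12.19, 12.30 and 12.05 with ethanol (-0.37 ± 0.10, adjusted p = 0.019). Each line was lower for both genes, with groups that overlapped.

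Cct8 read 11.14, 11.99 and 11.03 with the drug, against 11.22, 12.09 and 11.75 with ethanol, so KPR8 stood apart from the other lines (-0.30 ± 0.13, adjusted p = 0.103). Changes were -0.20 ± 0.10 for Cct3, -0.17 ± 0.10 for Cct5, -0.16 ± 0.09 for Cct6a, -0.10 ± 0.09 for Cct2 and 0.11 ± 0.09 for Cct4, none past the threshold. Probe sets disagreed in sign for Cct2 (-0.28 to 0.23) and Cct4 (-0.02 to 0.24), while the 6 of Cct3 were all below 0 and ran to -0.76 (adjusted p = 0.0372 over all probe sets).

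The median change of the 8 subunits was -0.11 in KPR4, -0.12 in KPR5 and -0.33 in KPR8. The call of Cct7 ended without KPR8 (adjusted p = 0.0606). That of Tcp1 ended without the variance trend (0.105), without KPR4 (0.054) and without KPR8 (0.0927). The lines also differed in a gauge of RNA integrity, the gap between 3′ and 5′ control probe sets, for which drug minus ethanol gave 0.24, 0.29 and -0.40 with Gapdh and 0.16, 0.39 and -0.07 with Actb (same order of lines). Its part in these changes was not tested. Cct6b, a subunit known from testis, stayed at 3.20 to 3.47.

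Of the Hspb genes 3 of 6 were tested, 1 rose and 0 fell (33.3% and 0%, against 10.5% and 8.94% of all genes). At an unadjusted p under 0.05 in limma 2 were higher and 0 lower, against 17.4% and 15.4% of all genes. Hspb2, a small heat shock protein known from muscle, read 4.14, 4.17 and 4.74 with the drug, against 3.86, 3.71 and 4.09 with ethanol. The treated arrays were all above the vehicle arrays, at levels close to the filter, and the change was 0.46 ± 0.15 (adjusted p = 0.04). Hspb2 reached log2 4 on 3 treated and 1 vehicle array, so it was tested because of the group where it is high, and its call is no support for a rise of the Hspb genes. The call ended without the filter (0.052), with median-centred arrays (0.0648), without KPR4 (0.0631), without KPR5 (0.104) and without KPR8 (0.192). Cryab, the small heat shock protein alpha-B crystallin, lies beside Hspb2 on chromosome 9 and their annotated spans overlap. It is outside the naming rule and was looked up as a related gene. Cryab read 11.33, 11.80 and 11.80 with 4-OH tamoxifen, against 9.26, 10.34 and 10.73 with ethanol, a change of 1.53 ± 0.15 (adjusted p = 8.3e-06), and 1.88 on a second probe set. The remaining one, at background (2.10 to 2.23), gave -0.018. Whether signal of the overlapping pair is kept apart was not tested.

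Hspb1, encoding Hsp27, read 5.67, 5.49 and 5.67 with the drug, against 5.73, 4.62 and 5.66 with ethanol. KPR5 was higher with the drug and the other lines nearly level, and neither the change of 0.27 ± 0.19 (adjusted p = 0.372) nor that of -0.11 on its other probe set passed. Hspb11, despite its name a protein of intraflagellar transport, had a change of 0.44 ± 0.17 (adjusted p = 0.0814). Hspbp1, caught by the prefix, is an exchange factor for Hsp70 and had a change of -0.16 ± 0.16.

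J-domain genes made up 38 of the 70, and of the 31 tested 5 rose and 3 fell (16.1% and 9.68%, against 10.5% and 8.94% of all genes). Their median change was 0.00. Class A, the closest relatives of bacterial DnaJ, had 0 of 4 past the threshold in limma. At an unadjusted p under 0.05, 1 was higher, as were 17.4% of all genes. Dnaja1, the main cytosolic partner of Hsp70, was lower in KPR4 and higher in the other lines (-0.44, 0.18 and 0.22), and Dnaja4 had a change of 0.45 ± 0.15 (adjusted p = 0.0528).

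In class B 3 of 8 tested genes rose and 0 fell, where 10.5% of all genes rose and 8.94% fell. The counts were the same at an unadjusted p under 0.05 in limma, against 17.4% and 15.4% of all genes. Dnajb2, which hands clients to the proteasome, read 6.37, 7.71 and 7.23 with the drug, against 5.83, 6.50 and 6.71 with ethanol. Among the 56 tested genes it had the largest rise, 0.76 ± 0.18 or 1.69-fold (adjusted p = 0.00893), with 0.54, 1.22 and 0.53 by line. The call ended without KPR5 (0.109).

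Dnajb9, an ER partner of BiP also known as ERdj4, read 8.998, 8.16 and 9.06 with 4-OH tamoxifen, against 8.11, 7.69 and 8.37 with ethanol, a rise of 0.69 ± 0.15 (adjusted p = 0.00523) that ended without KPR4 (0.0666). Dnajb5 read 4.71, 4.94 and 5.05 in treated cells, against 4.04, 4.08 and 4.73 with ethanol, a rise of 0.62 ± 0.16 (adjusted p = 0.0141) from vehicle levels close to the filter. Its call ended without KPR4 (0.0595) and without KPR5 (0.0984), and dimmer probe sets gave 0.21 and -0.097. The groups overlapped for Dnajb2, Dnajb9 and Dnajb5, with every line higher on the drug. Dnajb1, the heat-inducible Hsp40, read 8.96, 8.78 and 8.20 with the drug, against 8.77, 9.07 and 8.42 with ethanol, and was higher in KPR4 only (-0.11 ± 0.15, adjusted p = 0.677). Dnajb6, which keeps aggregation-prone proteins soluble, had a change of 0.09 ± 0.09, Dnajb12 of the ER membrane one of 0.29 ± 0.18 and Dnajb4 one of -0.34 ± 0.17.

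Class C, the varied remainder whose members often serve a fixed task, had 2 of 19 tested genes higher and 3 lower. These shares, 10.5% and 15.8%, stand beside 10.5% and 8.94% of all genes. Dnajc14, an ER membrane protein that aids receptor export, read 9.77, 9.22 and 9.86 with the drug, against 9.12, 8.58 and 9.34 with ethanol, a rise of 0.60 ± 0.13 (adjusted p = 0.00497). Its dimmer probe sets gave 0.11 and 0.080, and the call ended with probe sets averaged (0.179). Dnajc9, a chaperone of histones H3 and H4, read 8.73, 9.10 and 8.73 in treated lines, against 8.22, 8.41 and 8.35 with ethanol. Its groups did not overlap, the rise was 0.53 ± 0.15 (adjusted p = 0.02), and the call ended without KPR4 (0.0923) and without KPR5 (0.127).

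The class C genes that fell were Dnajc21, Dnajc2 and Dnajc8. Dnajc21, needed to mature the large ribosomal subunit, read 4.97, 5.55 and 5.32 with 4-OH tamoxifen, against 5.30, 6.32 and 6.04 with ethanol, the largest fall among the 56 (-0.60 ± 0.17, adjusted p = 0.021). Dnajc2, which sits with Hspa14 at the ribosome's exit, read 9.75, 10.40 and 10.69 in treated cells, against 10.17, 10.75 and 10.95 with ethanol (-0.34 ± 0.12, adjusted p = 0.04996). Dnajc8, found with spliceosomes, read 8.77, 9.60 and 8.84 with the drug, against 9.45, 9.88 and 9.17 with ethanol (-0.43 ± 0.14, adjusted p = 0.0442). In all 3 genes each line was lower and the groups overlapped.

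These calls did not hold in several settings. That of Dnajc21 ended without KPR5 (0.111) and without KPR8 (0.108). That of Dnajc2 ended without the filter (0.0802), with probe sets averaged (0.424), without the variance trend (0.112), with median-centred arrays (0.0537), without KPR4 (0.282), without KPR5 (0.154) and without KPR8 (0.0729), and its dimmer probe sets ran from -0.26 to 0.0060. That of Dnajc8 ended without the filter (0.0785), without the variance trend (0.0689), without KPR4 (0.379), without KPR5 (0.0735) and without KPR8 (0.0823). Among the 14 class C genes that did not pass, changes ran from -0.46 for Dnajc1, an ER membrane protein, to 0.43 for Dnajc18. Other Dnajc1 probe sets gave 0.15 and -0.20. Dnajc18 passed without KPR8 (0.66, adjusted p = 0.0432), but read 3.71 to 4.81, close to the filter, and gave -0.058 on a probe set near background. Dnajc5, the cysteine string protein of secretory vesicles, had a change of 0.40 ± 0.14 (adjusted p = 0.0678), and Dnajc7, which binds both Hsp70 and Hsp90, one of -0.01 ± 0.14. Dnajc10, an ER disulphide reductase, had 0.18 ± 0.13, and Dnajc15 of the mitochondrial import motor 0.09 ± 0.15.

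**Figure D3:**
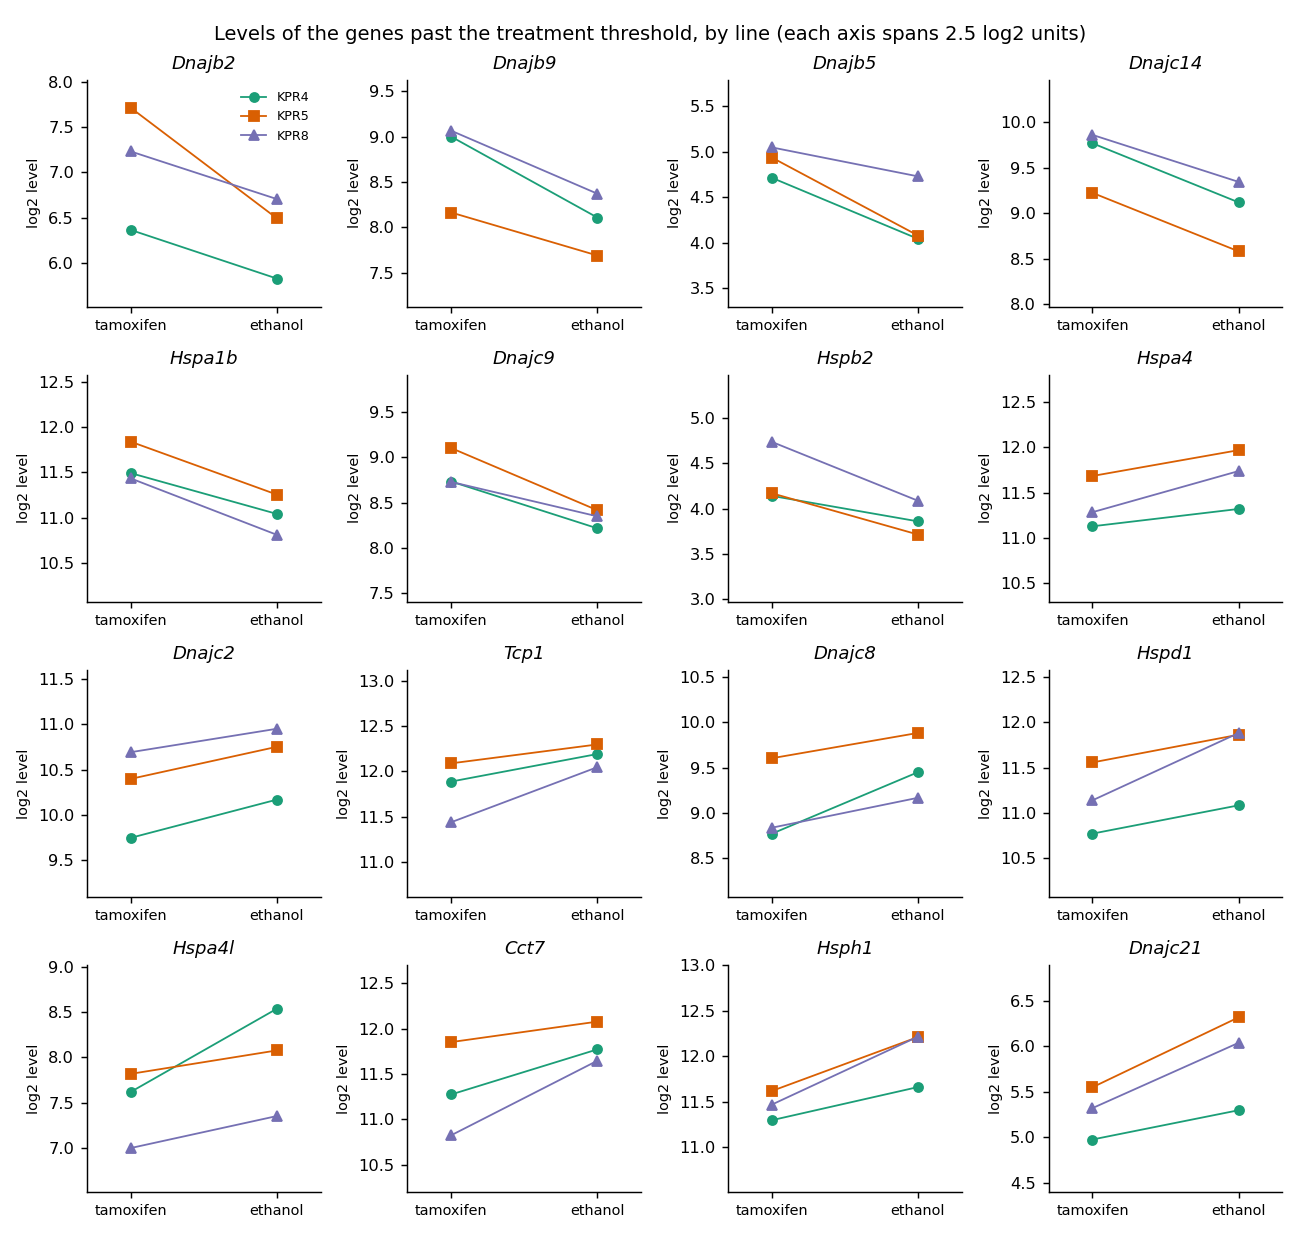
Log2 level of the 16 genes past the threshold with 4-OH tamoxifen (left in each panel) and ethanol (right), one line per cell line, every axis spanning 2.5 log2 units. Lines slope the same way within each panel, and the cell lines often lie further apart than the treatments, as for Dnajc2.

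Probe sets of the same gene did not always give the same sign. Of the 56 genes tested, 39 had further probe sets, and in 22 at least one of these had the opposite sign to the one used. Counting further probe sets with a mean of log2 4 or above, this held for 18 of 34. For the genes past the threshold it was 3 of 8 (Dnajb5, Dnajc2 and Hspa4), and 1 of 8, Hspa4, at log2 4 or above. The cause of these differences was not tested.

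**Figure D4:**
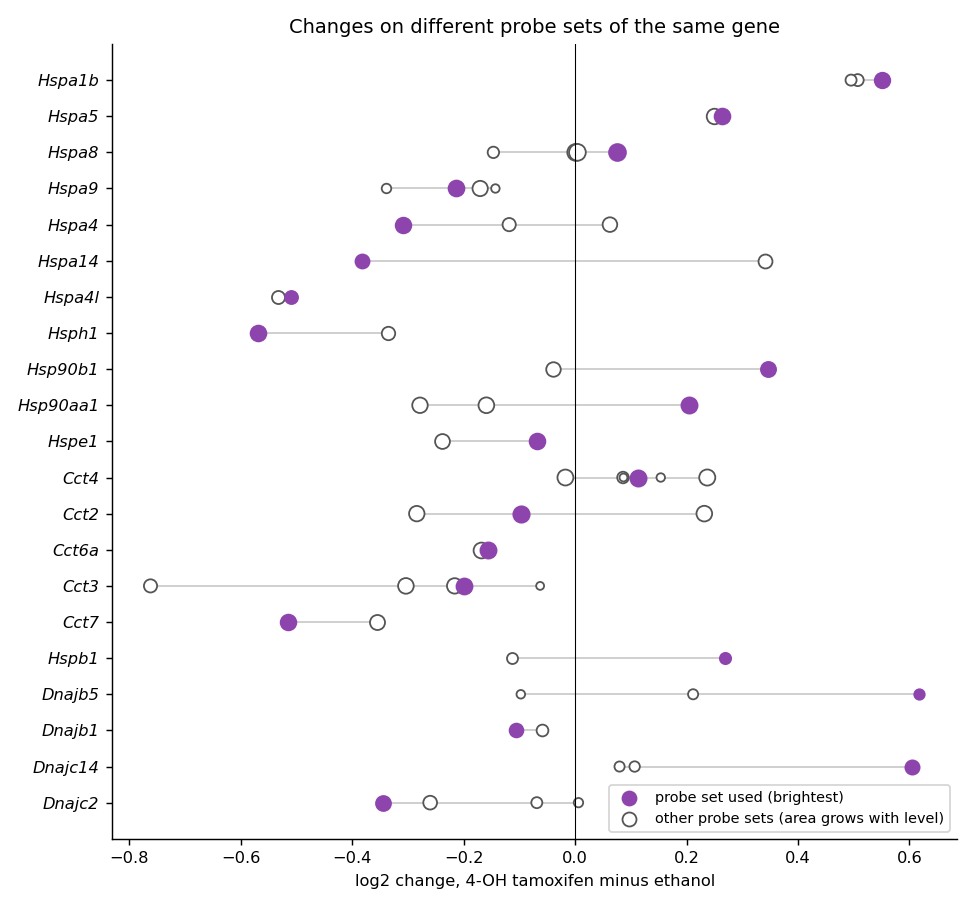
Log2 change, 4-OH tamoxifen minus ethanol, on each probe set of selected genes with several probe sets (rows). Filled circles are the probe sets used, open circles the others, and circle area grows with the mean level. All probe sets of Hspa1b lie near 0.5 and all of Hsph1, Cct7 and Hspa4l below 0, while those of Hspa14, Hsp90aa1 and Cct2 fall on both sides of 0.

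Many of the chaperones also stood at different levels in the 3 cell lines. In limma's moderated F-test 28 of the 56 genes (50%) differed between lines, against 42% of all genes tested. Of the 28, 13 also changed with treatment, as did 867 of the 3210 genes that differed between lines over the whole array. The range between line means had a median of 0.47 over the 56 genes and 0.50 over all genes tested. Dnajb4, a class B partner of Hsp70, had the widest range, with line means of 7.97, 6.57 and 6.18 in KPR4, KPR5 and KPR8 (adjusted p = 1.8e-05). Both KPR4 arrays (7.75 and 8.19 with drug and ethanol) were above the other 4.

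Dnaja4 ran the other way, with line means of 3.84, 4.18 and 5.59 (adjusted p = 9.5e-06), and both KPR8 arrays were the highest. KPR4 had the lowest mean for Dnajc11, a mitochondrial protein, at 4.61, 5.70 and 5.18 (adjusted p = 0.00159). The same held for Hspd1, at 10.93, 11.71 and 11.51 (adjusted p = 0.00128). KPR4 also had the lowest means for Dnajb2 (6.10, 7.10 and 6.97), Dnajc2 (9.96, 10.57 and 10.82) and Dnajc21 (5.14, 5.94 and 5.68), with adjusted p-values of 0.00458, 7.2e-04 and 0.0169.

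KPR5 was highest for Cct8 (11.18, 12.04 and 11.39, adjusted p = 0.00117). It was lowest for Dnajc3 (8.25, 7.92 and 8.75, adjusted p = 0.00957) and Dnajb9 (8.55, 7.93 and 8.72, adjusted p = 0.00769), although the Dnajb9 arrays of KPR5 overlapped those of KPR4. Dimmer Dnajc3 probe sets differed in the order of lines. KPR5 was lowest on some and highest on another (6.92 and 7.01 with drug and ethanol). Hspa4l was lowest in KPR8 (8.08, 7.95 and 7.18, adjusted p = 0.00632). Hsp90aa1 was highest there on the probe set used, with line means of 12.10, 12.09 and 12.70 (adjusted p = 6.2e-04). On its other probe sets KPR4 was lowest and, with ethanol, KPR8 was below KPR5 (11.29, 12.04 and 11.78, and 11.02, 11.73 and 11.46). With the drug KPR5 and KPR8 were nearly level there. The count of 28 became 14 without KPR4, 20 without KPR5 and 19 without KPR8, and 2 when the treatment term was left out of the model.

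Hspb8, a small heat shock protein that works with Bag3 in selective autophagy, separated one line from the rest. It read 3.54, 3.97 and 7.09 with 4-OH tamoxifen in KPR4, KPR5 and KPR8, against 3.25, 3.52 and 7.19 with ethanol. KPR8 was thus more than 3 log2 units above the others on both arrays, and the difference between treatments was 0.22. Reaching log2 4 on the KPR8 arrays alone, it failed the filter. In limma without a filter, where 27.4% of genes differed between lines, its adjusted p for lines was 4.4e-08 and that for treatment 0.47. Its dimmer probe sets were also highest in KPR8, but with smaller gaps and below log2 4 on every array. The dimmest read 2.92, 2.84 and 3.60 with the drug, against 2.66, 2.68 and 3.54 with ethanol. The other read 3.40, 3.28 and 3.61 with the drug, against 3.49, 3.42 and 3.71 with ethanol.

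**Figure D5:**
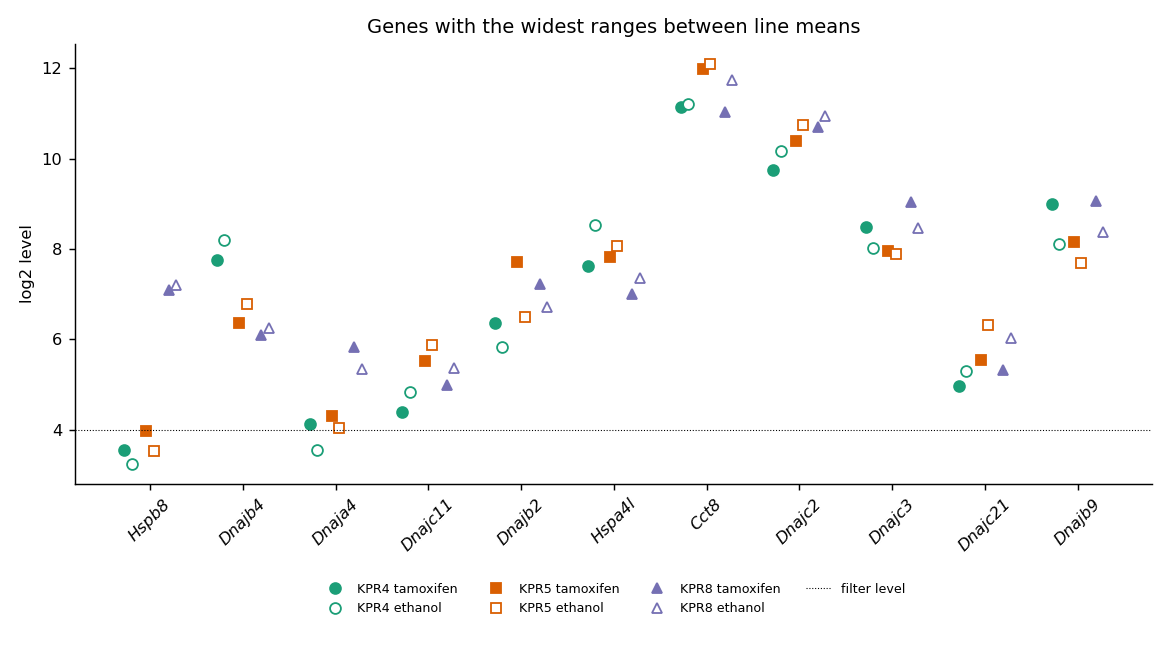
Log2 level on each array of Hspb8 and of the 10 tested genes with the widest range between line means, by cell line (colour and shape) and treatment (filled for 4-OH tamoxifen, open for ethanol); the dotted line is the filter level of log2 4. Both KPR8 arrays of Hspb8 lie above 7 and its other 4 below 4, and both KPR4 arrays of Dnajb4 lie above those of the other lines.

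The other 12 genes below the filter lay between 1.29 and 3.86 on every array. They were Cct6b, Hspa1l and Dnajb13, known from testis, the muscle genes Hspb3 and Hspb7, Hspa12b of endothelium, and Dnajb3, Dnajb7, Dnajb8, Dnajc5b, Dnajc12 and Dnajc27. In limma without a filter, Hspa1a was the only one of the 14 with an adjusted p under 0.05 for treatment.

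Partners of these chaperones outside the naming rule were read from lists of related genes. Of 24 tested cochaperones of Hsp70 and Hsp90, 4 fell and 0 rose (7 and 1 at an unadjusted p under 0.05 in limma, against 15.4% and 17.4% of all genes), with a median change of -0.19. By line the median was -0.10 in KPR4, -0.11 in KPR5 and -0.34 in KPR8, with the integrity gauge as given for the chaperonin. Fkbp5, a steroid receptor cochaperone and a target of the glucocorticoid receptor, read 5.98, 5.66 and 5.36 with the drug, against 6.97, 6.54 and 6.30 with ethanol (-0.94 ± 0.16, adjusted p = 0.00101). Ahsa1, which activates the ATPase of Hsp90, had a change of -0.61 ± 0.15 (adjusted p = 0.0101), Fkbp4, another receptor cochaperone, one of -0.59 ± 0.16 (0.0187), and Cacybp one of -0.49 ± 0.11 (0.00691).

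The Ahsa1 call ended without KPR4 (0.11) and without KPR8 (0.0512) and that of Fkbp4 with probe sets averaged (0.057), without KPR5 (0.051) and without KPR8 (0.124). Stip1, which bridges Hsp70 and Hsp90, had a change of -0.39 ± 0.14 (adjusted p = 0.0647) and Bag3 one of -0.03 ± 0.18. Of the heat shock factors, Hsf2 and Hsf4 were below the filter, and Hsf1 was not analysed here.

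Among 11 helpers of the cytosolic chaperonin, including prefoldin, 2 rose and 2 fell (18.2% each, against 10.5% and 8.94% of all genes). Their median change was -0.03. Pdrg1, a prefoldin-like gene, read 9.65, 9.37 and 8.77 with 4-OH tamoxifen, against 8.002, 7.77 and 7.76 with ethanol (1.42 ± 0.16, adjusted p = 2.8e-05). Pdcl, a phosducin-like cofactor of the ring, rose by 0.92 ± 0.12 (adjusted p = 6.2e-05), or by 0.50 on a dimmer probe set. The prefoldin subunits Pfdn2 and Pfdn6 fell, with changes of -0.59 ± 0.16 (0.0193) and -0.53 ± 0.17 (0.0385). The Pfdn2 call ended without KPR4 (0.171) and without KPR5 (0.0561), and that of Pfdn6 without the filter (0.0635), without KPR4 (0.163) and without KPR5 (0.211).

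Mitochondrial chaperones and proteases had 1 of 12 higher and 1 lower (8.33% each, against 10.5% and 8.94% of all genes). Yme1l1, an inner membrane protease, had a change of 0.52 ± 0.14 (adjusted p = 0.0162), which ended with probe sets averaged (0.263), without KPR5 (0.0641) and without KPR8 (0.0773). Htra2, a protease released in apoptosis, fell (-0.55 ± 0.13, adjusted p = 0.00772), and lost its call without KPR4 (0.0992). Of 14 ER chaperones 1 rose and 0 fell (3 and 1 at an unadjusted p under 0.05 in limma, against 17.4% and 15.4% of all genes), with a median of 0.06. It was Canx, encoding the lectin chaperone calnexin, at 0.35 ± 0.10 (adjusted p = 0.0288), whose call ended without the variance trend (0.112), with median-centred arrays (0.0713), without KPR4 (0.219) and without KPR8 (0.103).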

How the data were processed

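Per the submitters' processing notes, the authors made the deposited log2 values, 1 per probe set and array, with GCRMA 2.20.0 in R 2.11.0. GCRMA corrects background by probe sequence and normalizes across arrays before summarising, so a change shared by most genes would be hidden. Whether further arrays entered it was not given in the sources used here. Total RNA (100 ng) was amplified with a NuGEN Ovation kit, per the labels.

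Of 22690 probe sets, 20380 had 1 symbol in GEO's platform annotation, and 20351 of these matched GRCm38.p6 by Entrez identifier with 0 symbols changed. A gene had to reach log2 4 on 3 or more of the 6 arrays, which left 7644. Limma 3.58.1 in R 4.3.3 fitted line and treatment, with a variance trend, 2 residual degrees of freedom and a prior of 12.9. P-values are 2-sided, Benjamini-Hochberg adjusted over all genes tested. Errors of changes are limma standard errors, which draw on the spread of other genes. The line term is the replicate block: both arrays of a number are 1 cell line, and their deviations from group means correlated across genes at 0.876, 0.737 and 0.761. The 3 lines are the replicates, and 1 array each leaves differences of response between lines untested. The number of arrays limits precision. The fit was tested on simulated data.

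Genes given in full were those past the treatment threshold, the extremes of each family, the 10 widest line ranges, stress-inducible genes, their constitutive partners and the CCT genes. Members, lists and tests were chosen with earlier results of these data known. Alternatives were no line term, no or a stricter filter (log2 5), mean of probe sets, no variance trend, median-centred arrays, each line left out, and other probe sets, whose p-values were adjusted over all 22690.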

Additional observations from a re-analysis of the deposited data

How the results depend on the processing

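The counts rest on the pairing of arrays by line. Without the line term (no replicate block), limma called 0 chaperone genes higher and 0 lower at the adjusted threshold, and 22 and 1 of all genes. At an unadjusted p under 0.05 it called 3 chaperone genes higher and 1 lower. With 1 line left out, 3 to 7 chaperone genes were higher and 1 to 4 lower, and 525 to 613 of all genes were higher and 420 to 456 lower. The number differing between lines was 14 to 20 with 1 line left out, and 2 without the treatment term. The lower count was also 5 without a filter, where 12393 genes are tested, and 3 without the variance trend. Under the stricter filter, the mean of probe sets and median-centred arrays, each count of chaperone genes was within 1.5 times the first. The sign turned on other probe sets for Dnajb5 (-0.097), Dnajc2 (0.0060), Hspa4 (0.062) and Cryab (-0.018), and the cause was not tested. On the same probe sets, and in all settings that keep the line term, the calls of Hspa1b and Hsph1 held, with adjusted p up to 0.0239 and 0.0246, and the other 14 lost theirs in at least one. Alternatives for genes of the related lists were added after seeing the data. The number of lines, 3 with 1 array each per treatment, limits the precision, and genes near background (Hspb2, Dnajb5) have little signal to compare.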
